A study of Mus musculus with 24 samples.

Results

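Alveolar macrophages (AMs) of adult mice were compared with the cells that grow out of digested lung in culture, the AM-like cells (AM-LCs). The comparison used the 3 libraries of sorted AMs (AM_ex) and the 3 libraries of cultured AM-LCs (AM_in), 6 of the 24 libraries of the series, and the groups were taken from the sample labels alone. Both groups came from female C57BL/6J mice of 8 to 12 weeks, and the labels and methods name no transgene or other allele in either group. The AMs were sorted as live cells straight from the lung with antibodies to CD45, CD11b and SiglecF, so that the level of Siglecf in AMs is not independent of the sort. The AM-LCs grew for 14 days from digested lung, plated as the pellet of a Percoll density gradient after lysis of red cells, with 3 lungs pooled per flask. The flasks were coated with polyethylenimine and held 20 ng/ml GM-CSF and 10% fetal calf serum, with 1 partial medium change on day 2. They were kept at atmospheric oxygen in a medium with glutamine and no added glucose. The AM-LCs are not stated to have been sorted, so the groups differ in purification as well as in culture. The series calls the 3 libraries of a group biological replicates.

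AMs live on the air side of the lung surface, where they take up inhaled particles and the lipids and proteins of spent surfactant. GM-CSF from alveolar epithelium, together with TGF-beta, drives their identity through the nuclear receptor PPAR-gamma, and they are known for a lipid-handling program that other tissue macrophages use less. In contrast to most other macrophages, they carry little CD11b and much SiglecF and CD11c.

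Read counts per gene were scaled to CPM (counts relative to library size) with TMM factors over all 24 libraries of the series. Fold changes used TMM factors over the 6 libraries and are given on the log2 scale as AM-LC minus AM with their standard error after ±. The 6 libraries held 31928003 to 38307792 counted reads and 16596 to 17713 detected genes. The 10 most abundant genes took 12.6 to 14.9% of the reads in AMs and 23.4 to 29.0% in AM-LCs. AM libraries resembled each other closely, with a Pearson correlation of log2 CPM over genes of 0.980 to 0.981. AM-LC libraries were further apart at 0.934 to 0.960, and libraries of different groups reached 0.830 to 0.893. Over all genes the AM-LC libraries were thus the more variable group, which does not hold for every single gene.

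RNA of other lung cells was measured with lists of marker genes. The summed level of 14 fibroblast markers was 3.09 to 8.18 CPM in AMs and 398, 855 and 2602 CPM in AM-LCs, and 6 of the 14 had no read in AMs. Fibroblast marker RNA was present in each AM-LC library and richest in replicate 3, and all 10 fibroblast markers that could be tested were higher in AM-LCs. Col1a1, Col1a2, Col3a1, Col5a1, Dcn, Pdgfra, Pdgfrb and Sparc were each at 9.7 CPM or less in replicate 1. Most of the 398 CPM there thus came from other markers of the list. These 8 rose more steeply to replicate 3 than the sum, with Dcn at 9.7, 52.2 and 609 CPM and Col1a2 at 4.15, 45.3 and 434 CPM. Markers of mesothelium and smooth muscle summed to 4.17 to 5.65 CPM in AMs and 4.8, 12.6 and 167 CPM in AM-LCs, which again set replicate 3 apart. Markers of interstitial lung macrophages were at 389.9 to 575 CPM in AMs and 6056, 2069 and 1281 CPM in AM-LCs, highest in replicate 1. Most of that sum was H2-Ab1, a gene of MHC class II, in every library. Markers of dendritic cells were at 23.7 to 26.1 CPM in AMs and 495, 174 and 182 CPM in AM-LCs, also highest in replicate 1. Mast cell and basophil markers were at 0.224 to 0.435 CPM in AMs and 114, 4.62 and 117 CPM in AM-LCs.

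The 3 markers named for the comparison, Car4, Siglecf and Fabp1, summed to 2100.3 to 2129 CPM in AMs and 125, 645 and 252 CPM in AM-LCs. The pan-macrophage list was high in every library, at 39539 to 57363 CPM in AMs and 54395, 92265 and 49995 CPM in AM-LCs, and 2 of its 10 genes were higher and 2 lower in AM-LCs. Neutrophil markers were at 153 to 180.3 CPM in AMs and 678, 737 and 324 CPM in AM-LCs, with 3 of 6 tested higher and 2 lower. Eosinophil markers, of which 3 of 7 had no read in any library, were at 651 to 670.0 CPM in AMs and 112, 479 and 191 CPM in AM-LCs, with 2 of 3 tested higher and 1 lower. The monocyte list was at 19340.2 to 22402 CPM in AMs and 2338, 8754 and 2778 CPM in AM-LCs. Those last 2 sums come mostly from single genes that AMs also express, Siglecf in the eosinophil list and Chil3 in the monocyte list.

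Lower in AM-LCs were the markers of alveolar epithelium at 161 to 210.1 CPM in AMs and 56.6, 43.6 and 25.4 CPM in AM-LCs and those of airway epithelium at 3.71 to 12.3 CPM in AMs and 0.425, 0.725 and 2.33 CPM in AM-LCs. Of 4 tested alveolar epithelium markers, 2 were lower and 1 was higher. B cell markers were at 165 to 368 CPM in AMs and 62.7, 105 and 53 CPM in AM-LCs. T and NK cell markers were at 3.12 to 10.5 CPM in AMs and 56.3, 32.4 and 24.4 CPM in AM-LCs, but of 6 tested, 1 was higher and 2 were lower. Endothelial markers were at 52.5 to 63.2 CPM in AMs and 123, 73.8 and 97.7 CPM in AM-LCs and markers of red cells and platelets at 3.17 to 5.62 CPM in AMs and 26.6, 15.9 and 11.7 CPM in AM-LCs. What part these cells have in the results below was not tested. In bulk RNA, fewer cells of a type and less RNA per cell cannot be told apart.

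Of 13196 genes tested with edgeR's quasi-likelihood test, 3412 (25.9%) were higher and 3019 (22.9%) lower in AM-LCs at a Benjamini-Hochberg adjusted p under 0.05, 48.7% in all. With a log2 fold change beyond 1.5 as well, 1700 genes (12.9%) were higher and 1137 (8.62%) lower. The groups did not overlap in 61.7% of the genes. Direction depends on the scaling here: with library size in place of TMM, chosen after seeing the data, 2331 genes were higher and 4576 lower, the median of all genes went from 0.037 to -0.33, and the share of higher genes among the calls went from 53.1 to 33.7%. Changes of less than about 0.37 on the log2 scale therefore turn on the scaling. The gene lists below were read against the 25.9% and 22.9% of all genes, with higher and lower meaning an adjusted p under 0.05.

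**Figure D1:**
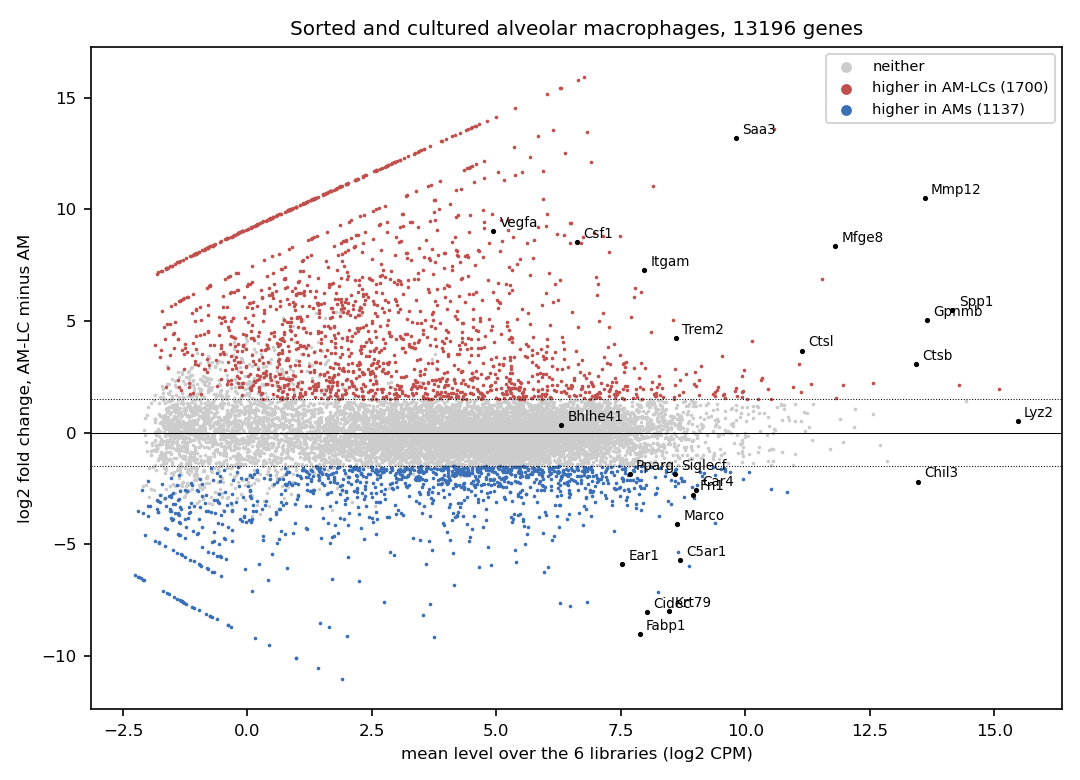
Log2 fold change (AM-LC minus AM) against the average log2 CPM for the 13196 genes tested. Coloured points passed both thresholds (1700 higher and 1137 lower in AM-LCs), and the diagonal streaks are genes with 0 or few reads in 1 group, whose fitted fold change depends on the prior count.

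The genes with the most reads changed places. AMs spent most reads on Lyz2, Chil3, Ctsd, Fth1, Actb, Tmsb4x, Ccl6, Cd9, Psap and Ctss. AM-LCs spent most on Ctsd, Lyz2, Spp1, Ccl6, Fth1, Gpnmb, Mmp12, Ctsb, Lgals3 and Psap. Lyz2, lysozyme, was at 50632, 36744 and 33470.2 CPM in AMs and 46953, 83953 and 44092 CPM in AM-LCs (log2 fold change 0.53 ± 0.29, adjusted p = 0.17), and its groups overlapped. Spp1, the secreted phosphoprotein osteopontin, was at 990.3, 744 and 851 CPM in AMs and 25924, 39346 and 49504 CPM in AM-LCs (log2 fold change 5.5 ± 0.33, adjusted p = 6.52e-05). Lgals3, the lectin galectin-3, was at 2567, 2116 and 2269.9 CPM in AMs and 10680.2, 12466 and 9330.5 CPM in AM-LCs (log2 fold change 2.23 ± 0.16, adjusted p = 0.000112). The cytoskeletal gene Actb was at 9575, 15040.3 and 9166 CPM in AMs and 5149, 3288 and 5635 CPM in AM-LCs (log2 fold change -1.25 ± 0.29, adjusted p = 0.011) and did not pass in a model of all 24 libraries (adjusted p = 0.0687).

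Genes that mark AMs were mostly lower in AM-LCs. Of 39 tested genes of AM identity (40 listed), 22 were lower and 9 higher, with a median log2 fold change of -1.37. Car4 (chr11:84957786-84966044, GRCm38), a membrane-bound carbonic anhydrase, was at 984, 957 and 918 CPM in AMs and 42.4, 333 and 106 CPM in AM-LCs (log2 fold change -2.57 ± 0.67, adjusted p = 0.016). Siglecf (chr7:43351341-43359531), a sialic acid receptor, was at 662, 651 and 643 CPM in AMs and 82, 311 and 145 CPM in AM-LCs (log2 fold change -1.86 ± 0.44, adjusted p = 0.0107). Fabp1 (chr6:71199827-71205023), a fatty acid binding protein, was at 469, 521 and 539 CPM in AMs and 0.457, 0.916 and 1.54 CPM in AM-LCs (log2 fold change -9.02 ± 0.44, adjusted p = 4.7e-05). All 3 markers had their 3 AM values close together and above every AM-LC value, but AM-LCs kept 16.8% of the Car4 level and 27.5% of that of Siglecf against 0.191% of that of Fabp1. Car4 and Siglecf were highest in replicate 2 among the AM-LCs. In a model of all 24 libraries Car4 and Siglecf no longer passed (adjusted p = 0.0952 and 0.107), nor did Chil3 (adjusted p = 0.115).

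Marco, a scavenger receptor for bacteria and particles, fell as well, at 719.6, 816 and 892 CPM in AMs and 16.7, 96.4 and 30.3 CPM in AM-LCs (log2 fold change -4.08 ± 0.63, adjusted p = 0.00202). Ear1, an eosinophil-type ribonuclease whose reads can be shared with its close copy Ear2, was at 407, 367 and 402 CPM in AMs and 1.37, 8.86 and 9.48 CPM in AM-LCs (log2 fold change -5.88 ± 0.70, adjusted p = 0.000671). Krt79, a keratin, was at 729, 763 and 792 CPM in AMs and 0.131, 8.25 and 0.826 CPM in AM-LCs (log2 fold change -7.98 ± 1.24, adjusted p = 0.00205). Krt79 was near 0 in AM-LC replicates 1 and 3 and higher in replicate 2, where Marco, Car4 and Siglecf were also highest. Chil3, a chitinase-like lectin close in sequence to Chil4, was at 18359.7, 21153 and 21318 CPM in AMs and 2316, 8710.5 and 2382 CPM in AM-LCs (log2 fold change -2.19 ± 0.52, adjusted p = 0.0112). Cd9, a tetraspanin, was at 5829, 4561 and 4496 CPM in AMs and 2856, 5006 and 3152 CPM in AM-LCs (log2 fold change -0.43 ± 0.24, adjusted p = 0.169), and it passed as lower only with library size (-0.82, adjusted p = 0.0113) or without AM-LC replicate 2 (-0.70, adjusted p = 0.0183) among the alternatives run.

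Other genes went the opposite way. Itgam, which encodes CD11b, an antigen used in the sort of the AMs, was at 3.95, 2.3 and 4.2 CPM in AMs and 601, 402 and 600.3 CPM in AM-LCs (log2 fold change 7.28 ± 0.34, adjusted p = 3.69e-05). C1qb, a chain of the complement component C1q, was at 1.43, 0.486 and 0.746 CPM in AMs and 831, 172 and 172 CPM in AM-LCs (log2 fold change 8.78 ± 0.92, adjusted p = 0.00041), with replicate 1 far above the others. The groups were apart in both genes. C1qb was highest in replicate 1, as was the interstitial macrophage sum, of which C1qb is itself a member.

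**Figure D2:**
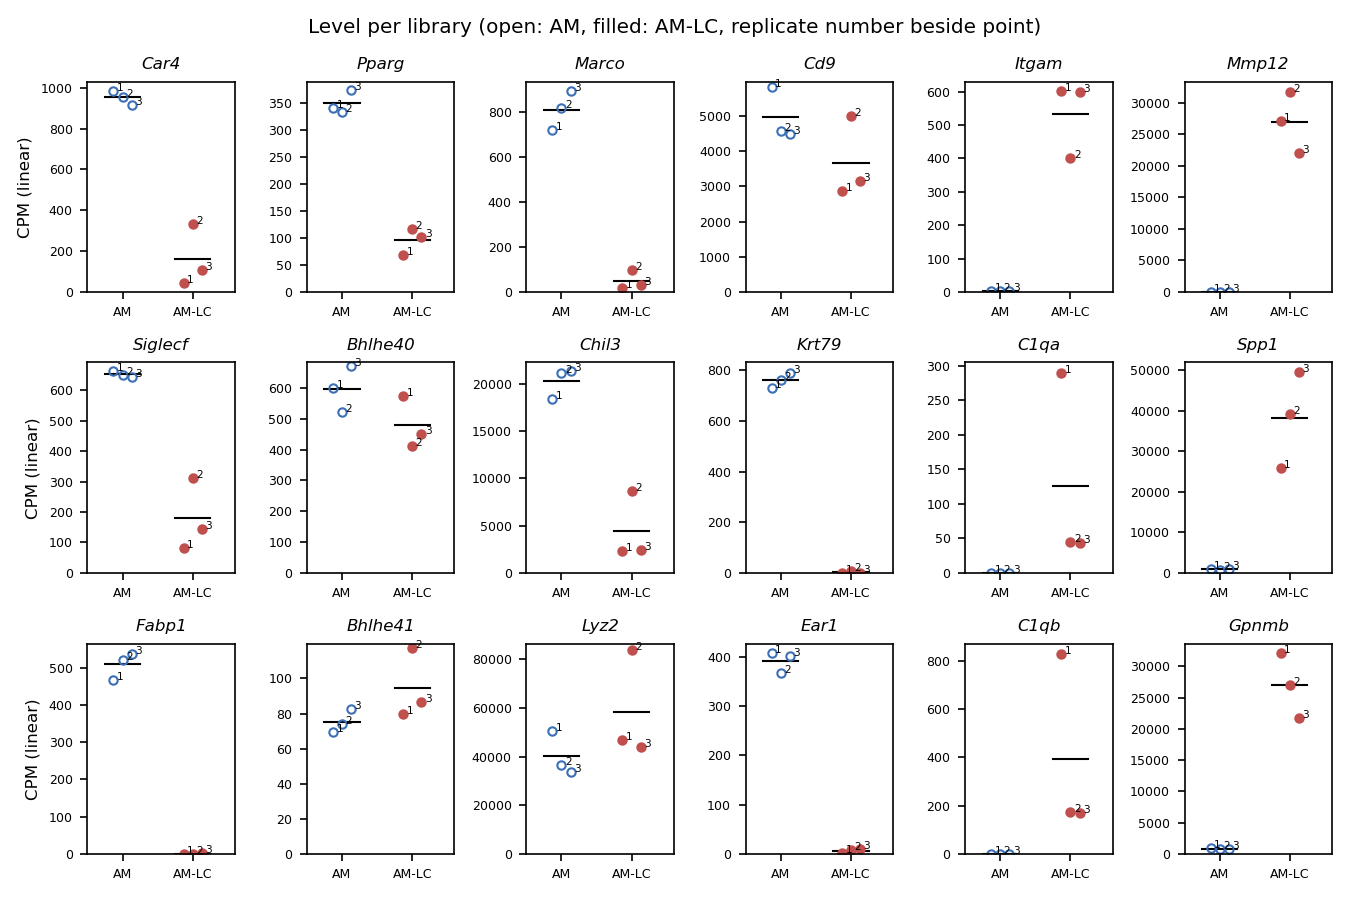
CPM of 18 AM identity and culture-related genes in each library (points, linear axes; bars are group means). Car4, Siglecf, Fabp1, Marco and Krt79 sit lower in every AM-LC library than in any AM library, Itgam, C1qa, C1qb, Mmp12, Spp1 and Gpnmb sit higher, and Lyz2 and Cd9 overlap.

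The receptor for GM-CSF, the factor added to the culture, was read at both chains. Of 17 tested genes of GM-CSF signalling (19 listed), 6 were higher and 5 lower, with a median of 0.084 that turned to -0.28 with library size and ranged from -0.025 without AM-LC replicate 1 to 0.20 without replicate 2 (0.0078 and 0.13 without AM replicate 1 and 2). Csf2ra, the chain specific to GM-CSF, was at 688, 597 and 703 CPM in AMs and 411, 426 and 324 CPM in AM-LCs (log2 fold change -0.77 ± 0.13, adjusted p = 0.00266) and did not pass in a model of all 24 libraries (adjusted p = 0.0914). Csf2rb, the shared signalling chain with a close copy in Csf2rb2, was at 764, 905 and 858 CPM in AMs and 1046, 758 and 858 CPM in AM-LCs (log2 fold change 0.084 ± 0.15, adjusted p = 0.677), and its direction turned with library size (-0.28) and without AM-LC replicate 1 (-0.025). Stat5a, which carries the signal to the nucleus, was at 74.8, 72.5 and 69.2 CPM in AMs and 33.2, 25.4 and 19.4 CPM in AM-LCs (log2 fold change -1.47 ± 0.18, adjusted p = 0.00077). Csf1, which encodes M-CSF, a factor not added to these cultures, was at 0.389, 0.921 and 0.373 CPM in AMs and 198, 74.9 and 348 CPM in AM-LCs (log2 fold change 8.54 ± 0.79, adjusted p = 0.000256). Without AM-LC replicate 1, 5 genes of the list were higher and 8 lower.

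TGF-beta signalling held 10 higher and 11 lower genes of 32 tested (36 listed, median 0.17). The median was -0.18 with library size, -0.20 without AM-LC replicate 3 (9 higher and 13 lower), 0.078 and 0.46 without AM-LC replicate 1 and 2 and 0.11 without AM replicate 1. Tgfbi, a classical target of TGF-beta, was at 898, 931 and 855 CPM in AMs and 236, 144 and 123 CPM in AM-LCs (log2 fold change -2.42 ± 0.23, adjusted p = 0.000299). Ski, a repressor of SMAD proteins, was at 345, 390.1 and 451 CPM in AMs and 109.9, 68.9 and 105 CPM in AM-LCs (log2 fold change -2.05 ± 0.22, adjusted p = 0.000422). Tgfb1, the ligand that AMs make themselves, was at 268, 264 and 309 CPM in AMs and 178, 123 and 151 CPM in AM-LCs (log2 fold change -0.89 ± 0.16, adjusted p = 0.00359). The ligand, its target and the repressor were each lower in every AM-LC library than in any AM library.

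Among the macrophage transcription factors, 16 of 33 tested (35 listed) were lower and 9 higher, with a median of -0.68. Pparg, the nuclear receptor of AM identity, was at 339.9, 333 and 374 CPM in AMs and 67.9, 116 and 102 CPM in AM-LCs (log2 fold change -1.86 ± 0.21, adjusted p = 0.000566). Cebpb, which AMs need to develop, was at 1626, 1704 and 2085 CPM in AMs and 391, 659 and 517 CPM in AM-LCs (log2 fold change -1.78 ± 0.21, adjusted p = 0.000733). Spi1, which encodes PU.1, was at 739, 721 and 827 CPM in AMs and 395, 413 and 318 CPM in AM-LCs (log2 fold change -1.02 ± 0.12, adjusted p = 0.00071). Retinoid receptors and Runx1 fell too, with Rara at -3.29, Rxra at -2.47 and Runx1 at -2.46 (adjusted p = 0.000272, 0.000129 and 0.000174). Id2, an inhibitor of basic helix-loop-helix factors, was at 234, 186 and 212 CPM in AMs and 690.5, 714 and 617 CPM in AM-LCs (log2 fold change 1.69 ± 0.12, adjusted p = 0.000129).

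Genes known from macrophages of other tissues were mostly rare in both groups, and 20 of 30 had enough reads to test. Of these, 8 were higher and 1 lower in AM-LCs, with a median of 3.13 for genes that mostly start near 0. No gene was lower without any 1 of the AM libraries, and 2 were without AM-LC replicate 1, where the median was 2.09.

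Genes of lipid handling moved in both directions. Of 44 tested genes of lipid uptake, storage and efflux (46 listed), 17 were higher and 17 lower, a median of 0.00092 on the TMM scale and -0.37 with library size, and of -0.20 to 0.03 without 1 library. Cidec, which fuses lipid droplets, was at 569, 564 and 564 CPM in AMs and 0.751, 5.08 and 0.79 CPM in AM-LCs (log2 fold change -8.03 ± 0.80, adjusted p = 0.000335). Dgat2, which makes triglyceride, was at 133, 146 and 143 CPM in AMs and 2.29, 1.53 and 2.66 CPM in AM-LCs (log2 fold change -6.0 ± 0.25, adjusted p = 3.17e-05). Abcg1, which exports cholesterol, was at 1571, 1990.4 and 1693 CPM in AMs and 368, 406 and 448 CPM in AM-LCs (log2 fold change -2.09 ± 0.16, adjusted p = 0.000149). In these 3 genes the AM values were well above all AM-LC values.

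Cd36, a receptor for oxidized lipids and long-chain fatty acids, was at 445, 469 and 393 CPM in AMs and 1606, 3501 and 1984 CPM in AM-LCs (log2 fold change 2.44 ± 0.29, adjusted p = 0.000693). Fabp5, a fatty acid binding protein, was at 329.6, 273 and 219 CPM in AMs and 1939, 2197 and 1604 CPM in AM-LCs (log2 fold change 2.81 ± 0.19, adjusted p = 0.000105), and its relative Fabp4 was at 153, 109 and 123 CPM in AMs and 316, 741 and 496 CPM in AM-LCs (log2 fold change 2.02 ± 0.31, adjusted p = 0.00195). Thus 2 fatty acid binding proteins rose while Fabp1 fell. Soat1, which esterifies cholesterol, was at 398, 394 and 366 CPM in AMs and 1271, 1365 and 1065 CPM in AM-LCs (log2 fold change 1.68 ± 0.12, adjusted p = 0.000124), and Lipa, the acid lipase that frees it in the lysosome, was at 1169, 1027 and 1013 CPM in AMs and 2366, 2496 and 2288 CPM in AM-LCs (log2 fold change 1.16 ± 0.12, adjusted p = 0.000402).

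Genes that burn fatty acids were mostly lower: 19 of 27 tested (30 listed) fell and 2 rose, with a median of -0.79. Cpt1a, the gate for fatty acids into mitochondria, was at 473, 632 and 544 CPM in AMs and 56.6, 81.1 and 106 CPM in AM-LCs (log2 fold change -2.73 ± 0.27, adjusted p = 0.000344). Hadha, of the mitochondrial trifunctional protein, was at 232, 249 and 240.1 CPM in AMs and 92, 101 and 106 CPM in AM-LCs (log2 fold change -1.26 ± 0.12, adjusted p = 0.000293). Acaa1b, a thiolase of peroxisomes, was at 184, 259 and 284 CPM in AMs and 0.163, 1.6 and 2.05 CPM in AM-LCs (log2 fold change -7.57 ± 0.72, adjusted p = 0.000287). All 3 enzymes, of both organelles, were lower in every AM-LC library than in any AM library.

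Fatty acid synthesis and targets of the sterol sensor LXR held 3 higher and 10 lower genes of 19 tested (20 listed, median -0.62), and 5 were higher without AM-LC replicate 2. Srebf1, the regulator of fatty acid synthesis, was at 138, 111 and 165 CPM in AMs and 52.3, 63.6 and 49 CPM in AM-LCs (log2 fold change -1.32 ± 0.17, adjusted p = 0.000918). Mylip, an LXR target that removes the LDL receptor, was at 44.9, 42.5 and 51.9 CPM in AMs and 11.2, 11 and 5.56 CPM in AM-LCs (log2 fold change -2.33 ± 0.26, adjusted p = 0.000557). The desaturase Fads1 rose, at 10.1, 10.3 and 13.8 CPM in AMs and 96.7, 80.8 and 125 CPM in AM-LCs (log2 fold change 3.17 ± 0.24, adjusted p = 0.000134). In cholesterol synthesis 6 of 25 tested genes (26 listed) were higher and 3 lower, below the share of all genes in either direction, with a median of 0.26, of -0.10 with library size and of 0.12 and 0.051 without AM replicate 1 and AM-LC replicate 1.

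Lysosomal proteases and the proton pump rose together. Of 16 tested cathepsins and cystatins (18 listed), 11 were higher and 1 lower (2 without AM-LC replicate 3), with a median of 1.67. Ctsb, cathepsin B, was at 2798, 2529 and 2365 CPM in AMs and 21352, 23608 and 18766 CPM in AM-LCs (log2 fold change 3.06 ± 0.16, adjusted p = 4.7e-05). Ctsl, cathepsin L, was at 408, 350.3 and 305 CPM in AMs and 4477, 4762 and 4262 CPM in AM-LCs (log2 fold change 3.67 ± 0.16, adjusted p = 3.21e-05). Ctsd, cathepsin D, was at 15312, 15847 and 15116 CPM in AMs and 51437, 74522 and 53544 CPM in AM-LCs (log2 fold change 1.96 ± 0.19, adjusted p = 0.00032). These 3 proteases were even across the AM-LC libraries, whereas the collagen-degrading Ctsk, cathepsin K, was at 641, 443 and 429.9 CPM in AMs and 908, 7929 and 3682 CPM in AM-LCs (log2 fold change 3.06 ± 0.70, adjusted p = 0.00997) and highest in replicate 2. Ctsc, the cathepsin that activates serine proteases of granules, fell to 958, 1192 and 701 CPM from 2400.5, 2176 and 2333 CPM (log2 fold change -1.28 ± 0.18, adjusted p = 0.00137).

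Of 19 tested subunits and partners of the V-ATPase (21 listed), which acidifies lysosomes, 15 were higher and 0 lower, with a median of 1.2 (0.83 with library size). Atp6v1h was at 171, 146 and 143 CPM in AMs and 468, 518 and 457 CPM in AM-LCs (log2 fold change 1.66 ± 0.12, adjusted p = 0.000129) and Tcirg1 at 261, 319 and 303 CPM in AMs and 677, 552 and 777 CPM in AM-LCs (log2 fold change 1.2 ± 0.18, adjusted p = 0.00168). Atp6v0d2, the d2 subunit that AMs and osteoclasts use, was high in both groups, at 1895, 1794 and 1793 CPM in AMs and 2164, 3596 and 2111 CPM in AM-LCs (log2 fold change 0.52 ± 0.21, adjusted p = 0.0754), and it passed without AM-LC replicate 1 (0.66, adjusted p = 0.0447) and with DESeq2 (adjusted p = 0.0220). The remaining lysosomal hydrolases and membrane proteins were mixed, with 23 of 52 higher and 11 lower (7 lower without AM replicate 2) and a median of 0.28 that turned to -0.099 with library size. Gla, an alpha-galactosidase, rose (3.15, adjusted p = 4.85e-05), as did the membrane protein Cd63 (4.12, adjusted p = 5.16e-05), while the sulfatase Ids fell (-1.53, adjusted p = 0.000199). Gpnmb, a glycoprotein of lysosomes and melanosomes, was at 880.4, 823 and 732 CPM in AMs and 32078, 27066 and 21747 CPM in AM-LCs (log2 fold change 5.06 ± 0.20, adjusted p = 3.17e-05).

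Most genes of extracellular proteases rose, several from near 0. Of 26 tested matrix proteases and inhibitors (27 listed), 18 were higher and 0 lower, with a median of 4.32, or 3.67 with genes that had no read in AMs set to their bound. Mmp12, the macrophage elastase, was at 17.2, 17.6 and 20.7 CPM in AMs and 27052, 31752 and 21976 CPM in AM-LCs (log2 fold change 10.51 ± 0.25, adjusted p = 4.97e-06). Mmp13, a collagenase, was at 0.209, 0 and 0.647 CPM in AMs and 297, 378 and 1118 CPM in AM-LCs (log2 fold change 11.04 ± 1.09, adjusted p = 0.000323, and 10.15 without replicate 3). Mmp14, which sits in the membrane and activates other proteases, was at 5.41, 2.76 and 3.03 CPM in AMs and 73.9, 75.5 and 165 CPM in AM-LCs (log2 fold change 4.85 ± 0.48, adjusted p = 0.000328, and 4.31 without replicate 3). Mmp12 was even across the AM-LC libraries, while Mmp13 and Mmp14 were highest in replicate 3, the library richest in fibroblast RNA. Without it, 17 of the list were higher and 2 lower.

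Genes of osteoclasts and cell fusion rose in 12 of 19 tested (22 listed) and fell in 2, with a median of 4.22. Dcstamp, which is needed for fusion, was at 0.0598, 0 and 0.373 CPM in AMs and 80.6, 99.2 and 64.9 CPM in AM-LCs (log2 fold change 9.06 ± 0.71, adjusted p = 0.000154). Itgb3, the beta3 integrin, had no read in AMs and was at 16.2, 23.3 and 34.9 CPM in AM-LCs, at least 309-fold higher. Adam8, a membrane metalloprotease, was at 0.897, 1.71 and 0.398 CPM in AMs and 201, 72.6 and 154 CPM in AM-LCs (log2 fold change 7.15 ± 0.65, adjusted p = 0.000238). Nfatc1, the master regulator of osteoclasts, fell, at 128, 158 and 140.2 CPM in AMs and 50.4, 28.6 and 37.5 CPM in AM-LCs (log2 fold change -1.86 ± 0.22, adjusted p = 0.0006003). Without any 1 AM library or AM-LC replicate 1, 1 gene was lower, and 4 were without AM-LC replicate 2.

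Genes of the amino acid response and of protein folding in the endoplasmic reticulum were mostly higher. ATF4, a transcription factor made when amino acids or folding capacity run short, binds a short element called CARE (TGATGNAA). ATF6 and XBP1, which answer unfolded protein, bind an element called ERSE (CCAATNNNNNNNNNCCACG). The 7 windows below are examples taken from the members that carry an element and were higher in AM-LCs, and the carriers not shown are named after them. Windows of 100 bases are given 5′ to 3′ on the gene's strand from RefSeq (GRCm38.p6), in lower case with the element in capitals, and an element on the opposite strand appears as its reverse complement.
Hspa5 (chr2:34771984-34772083, + strand): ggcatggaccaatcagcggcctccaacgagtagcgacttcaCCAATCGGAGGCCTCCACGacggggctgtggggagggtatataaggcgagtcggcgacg
Dnajc3 (chr14:118937786-118937885, + strand): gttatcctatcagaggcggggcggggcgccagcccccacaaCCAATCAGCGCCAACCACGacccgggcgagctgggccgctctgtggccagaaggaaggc
Calr (chr8:84847035-84847134, - strand, element on the opposite strand): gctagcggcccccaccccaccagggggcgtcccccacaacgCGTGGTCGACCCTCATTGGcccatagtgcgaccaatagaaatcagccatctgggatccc
Creld2 (chr15:88819479-88819578, + strand, element on the opposite strand): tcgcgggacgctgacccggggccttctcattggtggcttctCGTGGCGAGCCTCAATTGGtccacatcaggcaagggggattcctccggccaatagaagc
Asns (chr6:7693210-7693309, - strand): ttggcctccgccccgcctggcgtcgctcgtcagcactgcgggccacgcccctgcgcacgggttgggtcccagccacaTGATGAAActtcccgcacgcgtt
Chac1 (chr2:119351003-119351102, + strand, element on the opposite strand): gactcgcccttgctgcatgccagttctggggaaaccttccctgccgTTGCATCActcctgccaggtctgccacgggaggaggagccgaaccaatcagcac
Slc7a11 (chr3:50443614-50443713, - strand, 1 copy on each strand): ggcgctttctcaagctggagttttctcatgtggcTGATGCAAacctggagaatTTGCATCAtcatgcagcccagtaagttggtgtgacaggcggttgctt

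Both strands of the 250 bases before each start site were searched in 27025 genes. ERSE occurred in 35 genes (0.130%) and in 8 of the 18 unfolded protein response genes with a promoter in the table (44.4%). Of those 8, Hspa5, Hsp90b1, Pdia6, Calr, Dnajc3 and Creld2 were higher in AM-LCs, and Canx and Syvn1 passed in neither direction. Of all 18, 13 were higher. CARE occurred in 1056 genes (3.91%) and in 7 of the 23 ATF4-list genes with a promoter (30.4%). Of these 7, Chac1, Asns, Slc7a11, Pycr1 and Vldlr were higher, Nupr1 passed in neither direction and Fgf21 had too few reads to test. Of all 23, 16 were higher. Carriers of either element were thus higher about as often as their whole list. Vldlr, a lipoprotein receptor, had no read in AMs and was at 2.35, 1.64 and 16 CPM in AM-LCs, with 80.03% of its level in replicate 3. A match describes the letters of the window and is no measure of binding.

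Of 24 tested genes of the ATF4 and amino acid response (26 listed), 18 were higher and 0 lower, with a median of 2.44. Atf4 itself was at 123, 137 and 126 CPM in AMs and 263, 333 and 221 CPM in AM-LCs (log2 fold change 1.08 ± 0.15, adjusted p = 0.00126). Asns, asparagine synthetase, was at 15.8, 16.2 and 14.9 CPM in AMs and 188, 187 and 206 CPM in AM-LCs (log2 fold change 3.64 ± 0.13, adjusted p = 2.85e-05). Trib3, a pseudokinase that ATF4 induces, was at 5.47, 4.14 and 5.3 CPM in AMs and 159.6, 170.5 and 97.6 CPM in AM-LCs (log2 fold change 4.84 ± 0.24, adjusted p = 4.7e-05). Psat1, of serine synthesis, was at 17.5, 16 and 15.4 CPM in AMs and 132, 193 and 159 CPM in AM-LCs (log2 fold change 3.31 ± 0.18, adjusted p = 4.85e-05), and Ddit3, which encodes CHOP, was at 12.4, 11.7 and 15.4 CPM in AMs and 74.1, 164 and 84.1 CPM in AM-LCs (log2 fold change 3.03 ± 0.32, adjusted p = 0.000418). The rises were seen in each AM-LC library, with Asns the evenest of the 5. Chac1, which degrades glutathione, rose from a low level, at 0.628, 1.02 and 0.373 CPM in AMs and 9.57, 18.1 and 16.3 CPM in AM-LCs (log2 fold change 4.45 ± 0.49, adjusted p = 0.000504). Slc7a11, the cystine importer, was at 37, 10.6 and 8.11 CPM in AMs and 103, 159 and 83.7 CPM in AM-LCs (log2 fold change 2.63 ± 0.59, adjusted p = 0.00916) and did not pass in the 24-library model (adjusted p = 0.0874).

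Of 21 tested unfolded protein response genes (21 listed), 16 were higher and 1 lower, with a median of 1.19. Hspa5, the chaperone BiP, was at 1418, 1817 and 1592 CPM in AMs and 8269, 6719 and 6035 CPM in AM-LCs (log2 fold change 2.13 ± 0.17, adjusted p = 0.000152). Sdf2l1, which works with BiP, was at 197, 194 and 196 CPM in AMs and 1035, 998 and 645 CPM in AM-LCs (log2 fold change 2.19 ± 0.17, adjusted p = 0.000152). Calr, calreticulin, was at 1097, 1179 and 1100.0 CPM in AMs and 3031, 2383 and 2513 CPM in AM-LCs (log2 fold change 1.24 ± 0.13, adjusted p = 0.000479), and Dnajc3 and Creld2 rose by 1.5 and 1.47 (adjusted p = 0.000352 and 0.00032). Xbp1, whose spliced form drives part of this response, fell, at 1009.7, 1046 and 1141 CPM in AMs and 516, 475 and 411 CPM in AM-LCs (log2 fold change -1.18 ± 0.12, adjusted p = 0.00032), and gene-level counts do not separate its spliced form.

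Glycolysis and hypoxia targets were mostly higher in a medium without added glucose: 27 of 42 rose and 4 fell, with a median of 1.08, or 19 and 6 with library size (median 0.71) and 24 and 6 without AM-LC replicate 3 (median 0.68). Slc2a1, the glucose transporter GLUT1, was at 36.6, 41.3 and 33.3 CPM in AMs and 231, 221 and 334 CPM in AM-LCs (log2 fold change 2.84 ± 0.23, adjusted p = 0.000156). Hk3, a hexokinase of myeloid cells, was at 55.6, 68.9 and 74.6 CPM in AMs and 519, 455 and 473 CPM in AM-LCs (log2 fold change 2.87 ± 0.15, adjusted p = 4.7e-05). Vegfa, the vascular growth factor, was at 0.0299, 0 and 0.323 CPM in AMs and 53.1, 33.7 and 107 CPM in AM-LCs (log2 fold change 9.04 ± 0.95, adjusted p = 0.000418). Vegfa was close to 0 in AMs and highest in AM-LC replicate 3. Pkm, pyruvate kinase, was at 612, 564 and 608 CPM in AMs and 1143, 1072 and 1420.0 CPM in AM-LCs (log2 fold change 1.04 ± 0.16, adjusted p = 0.002003), and Pfkfb4, which sets the pace of glycolysis, fell, at 273, 275 and 297 CPM in AMs and 28.3, 50.5 and 33.5 CPM in AM-LCs (log2 fold change -2.9 ± 0.22, adjusted p = 0.000139).

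Gluconeogenesis, the pentose phosphate pathway and glutamine enzymes were mixed, with 7 of 23 tested (26 listed) higher, 8 lower (5 without AM replicate 2 or 3) and a median of 0.0058 (-0.37 with library size and -0.085 to 0.026 without 1 library). Pck2, the mitochondrial form of the enzyme that starts gluconeogenesis, was at 19.1, 24.4 and 21.3 CPM in AMs and 55, 63.6 and 51.2 CPM in AM-LCs (log2 fold change 1.39 ± 0.15, adjusted p = 0.000438). Glul, glutamine synthetase, was at 140.1, 139 and 133 CPM in AMs and 22.5, 43.6 and 34.6 CPM in AM-LCs (log2 fold change -2.02 ± 0.24, adjusted p = 0.000665). In AM-LCs the enzyme that makes glutamine was thus lower in each library.

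Small shifts of large gene families turn on the scaling. Nuclear genes of the respiratory chain were higher in 52 of 75 and lower in 1 (median 0.57), but in 26 and 7 with library size and in 34 and 1 without AM replicate 2 or 3. Ribosomal protein genes, many with pseudogene copies, were higher in 56 of 78 tested (79 listed, median 0.68) and lower in none, but higher in 24 with library size and in 37 and 36 without AM replicate 2 and 3. Genes of the mitochondrial genome were higher in 7 of 8 tested (13 listed, median 0.83), but in 1 with library size and in 4 without AM replicate 2, and the other 5 had no read in any library. Ndufs4, a subunit of complex I, was at 60.1, 50.03 and 44 CPM in AMs and 88.5, 95.7 and 80.6 CPM in AM-LCs (log2 fold change 0.79 ± 0.15, adjusted p = 0.00408). Sdha, of complex II and the citrate cycle, was at 445, 460.3 and 474 CPM in AMs and 328, 309.5 and 319 CPM in AM-LCs (log2 fold change -0.52 ± 0.10, adjusted p = 0.00561).

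Splicing factors went down under either scaling. Of 47 SR and hnRNP genes, 31 were lower and 0 higher (median -0.72), and 43 were lower with library size. Hnrnpu was at 84.7, 75 and 101 CPM in AMs and 47, 37.6 and 36 CPM in AM-LCs (log2 fold change -1.1 ± 0.15, adjusted p = 0.00123).

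Receptors for chemotactic peptides changed in opposite directions. Of 21 tested complement genes and receptors (26 listed), 13 were higher and 2 lower (median 3.1), or 10 and 4 without AM-LC replicate 3 (median 1.25), 8 and 2 without AM replicate 2 and 8 and 3 with limma-voom. C5ar1, the receptor for C5a, was at 823, 862 and 953 CPM in AMs and 39.7, 0.534 and 10.5 CPM in AM-LCs (log2 fold change -5.7 ± 1.21, adjusted p = 0.00731). C3ar1, the receptor for C3a, was at 0.478, 0.946 and 0.597 CPM in AMs and 387, 198 and 325 CPM in AM-LCs (log2 fold change 8.81 ± 0.41, adjusted p = 3.69e-05). Fpr1, the receptor for formylated bacterial peptides, was at 664, 645 and 644 CPM in AMs and 1.93, 9.01 and 2.87 CPM in AM-LCs (log2 fold change -7.15 ± 0.62, adjusted p = 0.000202), and its relative Fpr2 was at 97.4, 89.2 and 81.9 CPM in AMs and 0.359, 3.4 and 1.08 CPM in AM-LCs (log2 fold change -5.81 ± 0.69, adjusted p = 0.000659). C5ar1, Fpr1 and Fpr2 were lower in each AM-LC library than in any AM library, and C3ar1 was higher. C1qa, another chain of C1q, was at 0.359, 0 and 0.274 CPM in AMs and 290.3, 45.2 and 42.9 CPM in AM-LCs (log2 fold change 9.22 ± 1.23, adjusted p = 0.00105) and missed the threshold with limma-voom (adjusted p = 0.0532).

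Of 29 tested chemokines and receptors (34 listed), 15 were higher and 5 lower (median 2.03), and 3, 3 and 2 were lower without AM replicate 1, 2 and 3. Ccl2, which draws monocytes, was at 2.66, 3.04 and 6.09 CPM in AMs and 231, 161 and 424 CPM in AM-LCs (log2 fold change 6.14 ± 0.55, adjusted p = 0.000224). Ccl4, which draws monocytes and lymphocytes, was at 2.42, 2.84 and 3.33 CPM in AMs and 91.1, 71 and 69.8 CPM in AM-LCs (log2 fold change 4.76 ± 0.19, adjusted p = 3.17e-05). Ccl6, a monocyte attractant that AMs already make in quantity, was at 8583, 7993 and 7985 CPM in AMs and 27559, 50818 and 27618 CPM in AM-LCs (log2 fold change 2.11 ± 0.26, adjusted p = 0.000825). Ccl17, which draws T cells through CCR4, was at 4.81, 1.59 and 2.11 CPM in AMs and 217, 509.7 and 133 CPM in AM-LCs (log2 fold change 6.66 ± 0.69, adjusted p = 0.000406), and Ccr7, the receptor that guides dendritic cells to lymph nodes, was at 0, 0.256 and 0.0995 CPM in AMs and 52.2, 30.8 and 18.8 CPM in AM-LCs (log2 fold change 8.06 ± 0.79, adjusted p = 0.000315). Ccr7 is itself one of the dendritic cell markers, of which 9 of 10 tested were higher. Ccl17 was highest in AM-LC replicate 2, whereas the sum of those markers was highest in replicate 1. What part dendritic cells have here was not tested.

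Among the inflammatory cytokines and their antagonists, 7 were higher and 7 lower of 22 tested (28 listed, median -0.18, turned to 0.17 without a filter on low counts, 0.067 in the 24-library model and 0.050 without AM-LC replicate 3, and was -0.095 without replicate 2). Il1b, interleukin-1 beta, was at 95.3, 75.2 and 88.7 CPM in AMs and 7.38, 4.28 and 8.36 CPM in AM-LCs (log2 fold change -3.67 ± 0.29, adjusted p = 0.000146). Il1a, interleukin-1 alpha, was at 81.4, 63.5 and 77 CPM in AMs and 129.5, 128 and 115 CPM in AM-LCs (log2 fold change 0.75 ± 0.12, adjusted p = 0.00253) and did not pass in the 24-library model (adjusted p = 0.577). Il18 was at 360.5, 283 and 289 CPM in AMs and 21.5, 68 and 21.5 CPM in AM-LCs (log2 fold change -3.08 ± 0.47, adjusted p = 0.00187). Within the interleukin-1 family, Il1b and Il18 were lower and Il1a higher in each AM-LC library than in any AM library.

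Genes of antigen presentation moved in both directions, more of them up. Of 15 tested genes of MHC class II (16 listed), 8 were higher and 2 lower (median 1.66, and 0.94 without AM-LC replicate 1). H2-Ab1 was at 560.2, 379 and 428 CPM in AMs and 4364, 1738 and 943 CPM in AM-LCs (log2 fold change 2.35 ± 0.51, adjusted p = 0.00804). H2-Eb1 was at 157, 123 and 129.5 CPM in AMs and 1548, 574 and 398 CPM in AM-LCs (log2 fold change 2.61 ± 0.47, adjusted p = 0.00382), and H2-DMa, which helps load peptide, fell, at 533, 447 and 496 CPM in AMs and 326, 180.5 and 157 CPM in AM-LCs (log2 fold change -1.15 ± 0.26, adjusted p = 0.00857). Cd74, the invariant chain, was at 1953, 1399 and 1834 CPM in AMs and 6031, 2426 and 1557 CPM in AM-LCs (log2 fold change 0.94 ± 0.45, adjusted p = 0.121) and rose without replicate 3 (1.27, adjusted p = 0.0265). H2-Ab1 is itself a member of the interstitial macrophage list and made up most of its sum in every library. That sum and the dendritic cell sum were highest in replicate 1, and what part those cells have here was not tested.

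Interferon-stimulated and MHC class I genes were higher in 25 of 37 and lower in 3 (median 1.71), with 17, 17 and 19 higher and 1 lower without AM replicate 1, 2 and 3. B2m, the light chain of MHC class I, was at 2257, 1733 and 2023 CPM in AMs and 5730.3, 7260.2 and 4541 CPM in AM-LCs (log2 fold change 1.55 ± 0.19, adjusted p = 0.000786). Bst2, which tethers budding viruses, was at 45.7, 47.4 and 48.9 CPM in AMs and 190.0, 275 and 177 CPM in AM-LCs (log2 fold change 2.18 ± 0.17, adjusted p = 0.000155). Oas1a, which senses double-stranded RNA, was at 16.6, 17.7 and 15.1 CPM in AMs and 68.5, 120.1 and 52.6 CPM in AM-LCs (log2 fold change 2.28 ± 0.29, adjusted p = 0.000858).

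Sensors and uptake receptors moved in both directions. Toll-like and other pattern recognition receptors were higher in 8 and lower in 12 of 28 tested (30 listed, median -0.44), with 5 higher without AM replicate 2 or 3. Tlr2, which senses bacterial lipopeptides, was at 852, 1042 and 942 CPM in AMs and 176, 208 and 175 CPM in AM-LCs (log2 fold change -2.34 ± 0.14, adjusted p = 5.88e-05). Tlr13, which senses bacterial ribosomal RNA, was at 71.6, 100.4 and 76.7 CPM in AMs and 229, 253 and 323 CPM in AM-LCs (log2 fold change 1.71 ± 0.21, adjusted p = 0.000783). Of 19 tested uptake and scavenger receptors (25 listed), 8 were higher and 9 lower, and the median of 0.41 turned to -0.15 with a filter of 1 CPM and ranged from 0.082 without AM-LC replicate 3 to 0.98 without replicate 2 (0.75, 0.94 and 0.71 without AM replicate 1, 2 and 3). Msr1, the class A scavenger receptor, was at 23, 30.9 and 20.6 CPM in AMs and 565, 623 and 517 CPM in AM-LCs (log2 fold change 4.52 ± 0.20, adjusted p = 3.21e-05). Mrc1, the mannose receptor, was at 894, 1188 and 1065 CPM in AMs and 283, 424 and 383 CPM in AM-LCs (log2 fold change -1.52 ± 0.20, adjusted p = 0.000975), and Axl, which binds apoptotic cells, was at 2575, 2676 and 2847 CPM in AMs and 436, 566 and 417 CPM in AM-LCs (log2 fold change -2.51 ± 0.15, adjusted p = 6.11e-05). Mfge8, a bridge to apoptotic cells, was at 29.9, 18.5 and 22.2 CPM in AMs and 8322, 7098 and 7566 CPM in AM-LCs (log2 fold change 8.36 ± 0.27, adjusted p = 1.67e-05), and Trem2, a lipid receptor, was at 48.7, 40.03 and 41 CPM in AMs and 898, 711 and 788 CPM in AM-LCs (log2 fold change 4.22 ± 0.16, adjusted p = 3.17e-05).

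Siglec and Fc receptors were higher in 6 and lower in 6 of 17 tested (19 listed, median -0.16, -0.10 without AM-LC replicate 2, turned to 0.062 without replicate 3, and -0.26 and -0.28 without AM replicate 2 and 3). Siglece, an inhibitory receptor, was at 79.5, 91.8 and 92.4 CPM in AMs and 3.07, 1.07 and 2.62 CPM in AM-LCs (log2 fold change -5.26 ± 0.38, adjusted p = 0.000124). Fcgrt, the neonatal Fc receptor that saves IgG from breakdown, was at 716, 691 and 738 CPM in AMs and 73.9, 91.2 and 67.5 CPM in AM-LCs (log2 fold change -3.2 ± 0.14, adjusted p = 3.21e-05). Integrins and adhesion genes were higher in 9 and lower in 7 of 24 tested (26 listed), and the median of 0.22 turned to -0.10 with library size and -0.061 with a filter of 1 CPM, and was 0.0035 and 0.52 without AM-LC replicate 1 and 2 and 0.50 without AM replicate 2. Itgal, the alpha chain of LFA-1, was at 532, 622 and 586 CPM in AMs and 114, 166 and 163 CPM in AM-LCs (log2 fold change -1.96 ± 0.19, adjusted p = 0.000287), the reverse of Itgam. Cd44, the hyaluronan receptor, was at 1323, 1386 and 1441 CPM in AMs and 379.8, 400.0 and 434 CPM in AM-LCs (log2 fold change -1.76 ± 0.13, adjusted p = 0.000128).

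Prostaglandin and leukotriene enzymes were higher in 10 and lower in 5 of 23 (median 1.07, but 0.34 and 0.30 without AM-LC replicate 1 and 3). Of the higher genes, Ptgs2 and Ptgis had over 80% of their AM-LC level in replicate 3. Ptgs1, cyclooxygenase 1, was at 5.14, 8.93 and 7.76 CPM in AMs and 149.9, 56.1 and 184 CPM in AM-LCs (log2 fold change 4.18 ± 0.49, adjusted p = 0.000669), and Hpgd, which inactivates prostaglandins, was at 3.98, 2.53 and 1.47 CPM in AMs and 157, 45.6 and 66.3 CPM in AM-LCs (log2 fold change 5.08 ± 0.60, adjusted p = 0.000641). Ltc4s, leukotriene C4 synthase, was at 144, 142 and 162 CPM in AMs and 10.8, 12 and 11 CPM in AM-LCs (log2 fold change -3.71 ± 0.12, adjusted p = 1.71e-05), and Alox5ap, which hands arachidonate to the leukotriene pathway, was at 321, 291 and 286 CPM in AMs and 165, 74.6 and 83.7 CPM in AM-LCs (log2 fold change -1.47 ± 0.29, adjusted p = 0.00502). Prostaglandin genes thus rose and leukotriene genes fell among these 4.

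Alternative activation genes were higher in 10 and lower in 5 of 19 tested (22 listed, median 1.5), or 8 and 3 without AM replicate 2 and 9 and 3 without AM replicate 3. Mgl2, a lectin for galactose, was at 0.239, 0 and 0.0497 CPM in AMs and 267, 57 and 77.8 CPM in AM-LCs (log2 fold change 10.48 ± 1.03, adjusted p = 0.00032), highest in replicate 1. Arg1, arginase 1, was under 1 CPM in all 6 libraries. In the Ms4a family of membrane proteins, 3 of 9 tested (13 listed) were higher and 2 lower (median -0.44), with 1 lower without any 1 AM library or without AM-LC replicate 3. The median of this small family changed sign with the setting, and was 0.49 with limma-voom, 0.57 at 1 CPM, 0.85, -0.82 and -0.053 without AM replicate 1, 2 and 3, and -1.22 and -0.20 without AM-LC replicate 2 and 3. Ms4a7 was at 21.2, 11.2 and 8.51 CPM in AMs and 246, 100.5 and 69.8 CPM in AM-LCs (log2 fold change 3.34 ± 0.55, adjusted p = 0.0026).

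Immediate early genes, which dissociation and sorting are known to induce, were lower in 14 and higher in 3 of 30 tested (31 listed, median -0.86), with 10 lower without AM replicate 1, 1 higher without AM replicate 1 or 2 and 6 higher without AM-LC replicate 2. Fos was at 1090.0, 888 and 933 CPM in AMs and 327, 80.6 and 328 CPM in AM-LCs (log2 fold change -1.96 ± 0.50, adjusted p = 0.0148), and its adjusted p was 0.0505 without AM replicate 1. Myc was at 106, 159 and 212 CPM in AMs and 43.5, 35.6 and 32.6 CPM in AM-LCs (log2 fold change -2.09 ± 0.25, adjusted p = 0.000737). Atf3, which stress also induces, was at 62.6, 48.8 and 50.5 CPM in AMs and 356, 443 and 270.4 CPM in AM-LCs (log2 fold change 2.72 ± 0.19, adjusted p = 0.000116), and Hbegf, a growth factor, was at 0.209, 0.0256 and 0 CPM in AMs and 17.7, 26.9 and 25.6 CPM in AM-LCs (log2 fold change 8.27 ± 0.82, adjusted p = 0.000324). Heat shock genes were higher in 3 and lower in 3 of 14 tested (15 listed, median -0.14), with 1 lower without AM replicate 1 or 3 or AM-LC replicate 1, and medians of -0.082 and -0.088 without AM replicate 1 and 2 and -0.058 without AM-LC replicate 1.

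Cell cycle genes were lower in 15 and higher in 4 of 47 tested (48 listed, median -0.40). The median was -0.63 without AM-LC replicate 1 (21 lower) and -0.17 without replicate 2, and 10 and 10 were lower without AM replicate 1 and 2. Bub1b, of the mitotic checkpoint, was at 75.8, 88.1 and 85.6 CPM in AMs and 25.3, 18.2 and 19 CPM in AM-LCs (log2 fold change -1.99 ± 0.16, adjusted p = 0.000154). Cdkn1c, an inhibitor of cell division, was at 0.658, 0.691 and 0.672 CPM in AMs and 96, 46.8 and 67.4 CPM in AM-LCs (log2 fold change 6.7 ± 0.33, adjusted p = 4.7e-05), and Ccnd1, cyclin D1, was at 0.986, 0.563 and 1.62 CPM in AMs and 60.5, 25.2 and 58.9 CPM in AM-LCs (log2 fold change 5.53 ± 0.53, adjusted p = 0.0003001). The D-type cyclin and the inhibitor thus rose while the checkpoint gene fell.

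Iron and heme genes were higher in 12 and lower in 3 of 18 tested (22 listed, median 1.36). Tfrc, the transferrin receptor, was at 9.24, 10.03 and 7.46 CPM in AMs and 79.97, 44 and 63.9 CPM in AM-LCs (log2 fold change 2.82 ± 0.26, adjusted p = 0.000251). Fth1, the heavy chain of ferritin, was at 15206, 11599 and 12276 CPM in AMs and 29896, 40583 and 33089.9 CPM in AM-LCs (log2 fold change 1.42 ± 0.19, adjusted p = 0.00115). Trf, transferrin, was at 239.8, 217 and 233 CPM in AMs and 33.9, 62.7 and 34.5 CPM in AM-LCs (log2 fold change -2.39 ± 0.24, adjusted p = 0.000372). NRF2 targets and metallothioneins were higher in 15 and lower in 5 of 29 tested (30 listed, median 0.71). Gpx3, a secreted glutathione peroxidase, was at 4.18, 2.28 and 3.31 CPM in AMs and 87.7, 64.3 and 83.4 CPM in AM-LCs (log2 fold change 4.61 ± 0.27, adjusted p = 6.11e-05). Srxn1, which restores peroxiredoxins, was at 67, 47.8 and 43.2 CPM in AMs and 255, 251 and 231 CPM in AM-LCs (log2 fold change 2.23 ± 0.18, adjusted p = 0.00017), and Gsr, glutathione reductase, was at 556, 536 and 604 CPM in AMs and 146, 215 and 165 CPM in AM-LCs (log2 fold change -1.68 ± 0.16, adjusted p = 0.000296).

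**Figure D3:**
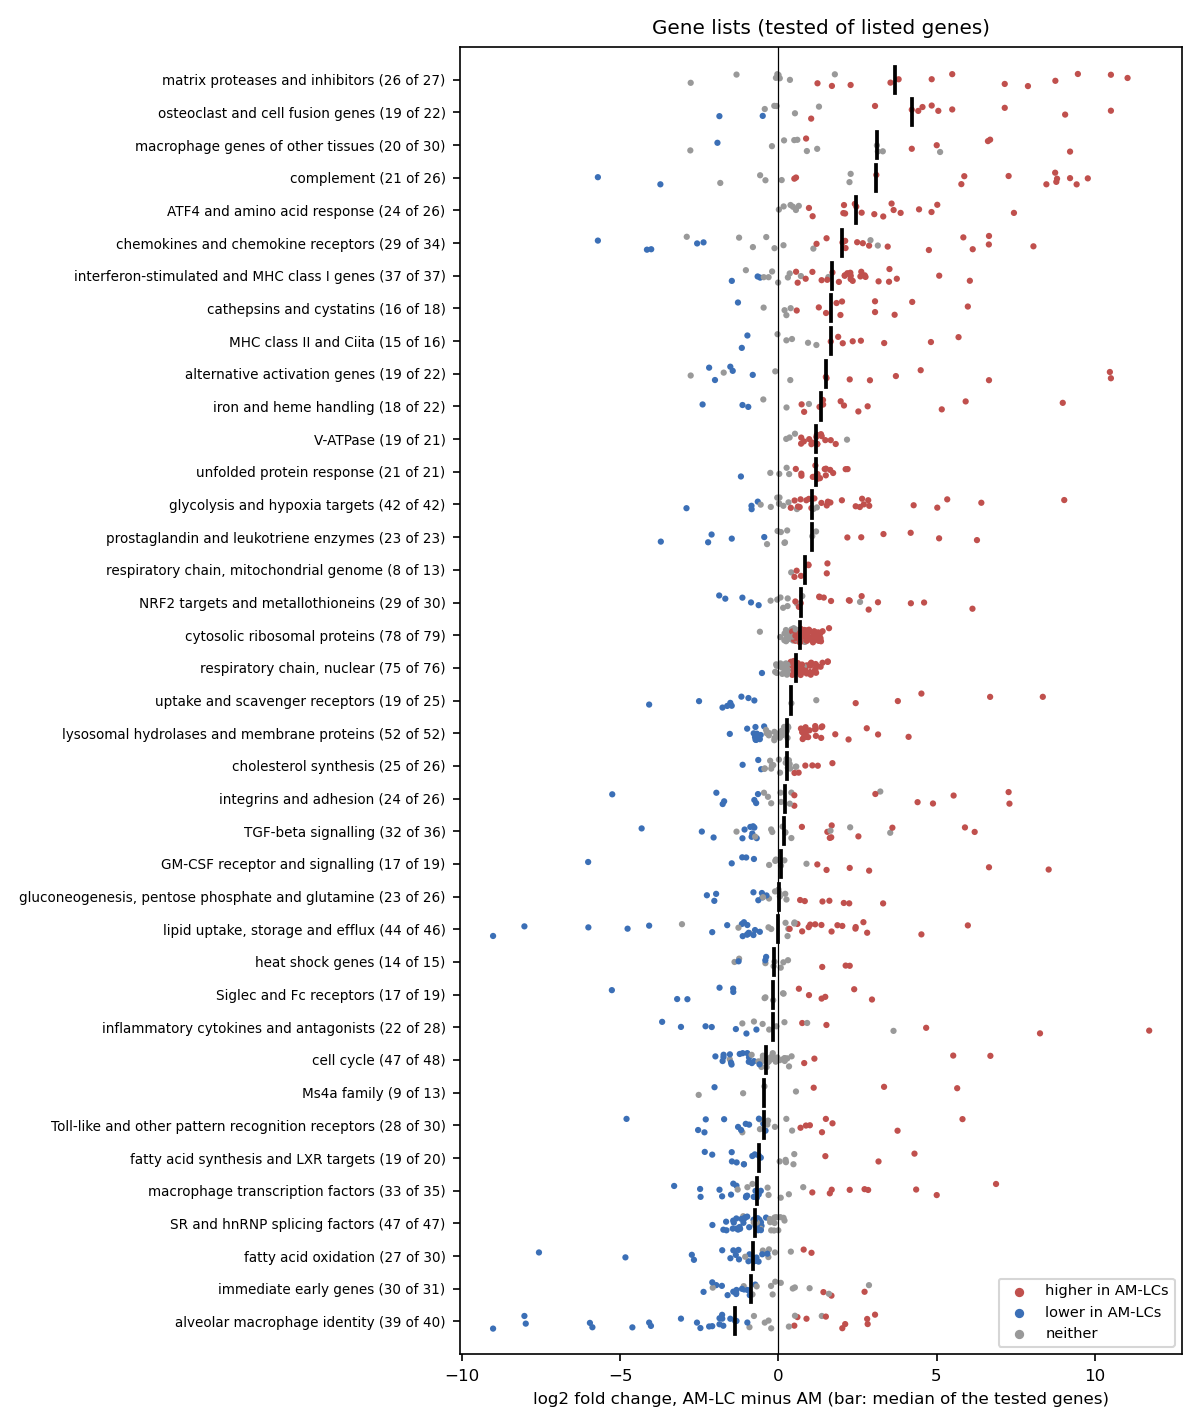
Log2 fold change (AM-LC minus AM) of the members of the 39 gene lists (points), with the median of each list (bar, genes without reads in a group at their bound); genes with 3 or fewer reads in a group are not drawn. Matrix proteases and osteoclast genes have the highest medians (3.67 and 4.22) and AM identity the lowest (-1.37); with library size every median shifts by about -0.37, so that those of GM-CSF and TGF-beta signalling, lipid handling, cholesterol synthesis, lysosomal proteins, gluconeogenesis and integrins turn negative.

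The largest falls at high level also included Txnip, which binds thioredoxin and responds to glucose, at 719.8, 996 and 825 CPM in AMs and 20.5, 8.4 and 32.1 CPM in AM-LCs (log2 fold change -5.35 ± 0.53, adjusted p = 0.000326). Gal, the neuropeptide galanin, was at 127, 134 and 139 CPM in AMs and 2.12, 2.86 and 0.395 CPM in AM-LCs (log2 fold change -6.23 ± 0.56, adjusted p = 0.00024). Patj, a polarity protein, was at 131, 196 and 175 CPM in AMs and 0.588, 1.99 and 0 CPM in AM-LCs (log2 fold change -7.64 ± 0.88, adjusted p = 0.000593), and Cpne5, a copine, was at 191, 179.6 and 207 CPM in AMs and 0.131, 2.18 and 0.431 CPM in AM-LCs (log2 fold change -7.75 ± 0.78, adjusted p = 0.000352). Every AM-LC library lay below every AM library for each of these 4 genes.

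The largest rises at high level started from no or few reads. Bex1 had no read in AMs and was at 87.1, 176 and 154 CPM in AM-LCs, at least 1730.0-fold higher. Rbp4, a retinol carrier, was at 0.299, 0.256 and 0.249 CPM in AMs and 4696, 2373 and 2787 CPM in AM-LCs (log2 fold change 13.57 ± 0.42, adjusted p = 1.67e-05). Npy, neuropeptide Y, was at 0.179, 0 and 0 CPM in AMs and 223, 232 and 308 CPM in AM-LCs (log2 fold change 12.13 ± 0.67, adjusted p = 4.92e-05). Cyp1b1, a cytochrome P450, had 1 read in the AMs and was at 73.5, 77.2 and 293 CPM in AM-LCs, a ratio of 16679.7 (95% counting interval 2994 to 658813). Serpinb2, an inhibitor of plasminogen activators, had no read in AMs and was at 10.2, 106 and 369.7 CPM, at least 2015-fold higher. Ifitm1, an interferon-induced membrane protein, was at 374, 26.6 and 143 CPM in AM-LCs, a ratio of 6811 (95% counting interval 2331 to 33026) over its 3 reads in AMs. Bex1, Rbp4 and Npy were within a narrow range across the AM-LC libraries, whereas Cyp1b1, Serpinb2 and Ifitm1 were not. With limma-voom, Serpinb2 and Ifitm1 did not pass (adjusted p = 0.156 and 0.0808).

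AM-LC replicate 3 held most of the AM-LC level of a set of genes. Of the 1700 genes past both thresholds as higher, 106 (6.24%) had over 80% of their summed AM-LC level in replicate 3, against 6 in replicate 1 and 2 in replicate 2. Among the 106 were 8 of the fibroblast markers, Col1a1, Col1a2, Col3a1, Col5a1, Dcn, Pdgfra, Pdgfrb and Sparc. In AMs, 27 of the 106 had no read and 32 had 1 to 3 reads. Without replicate 3, 92 of the 106 still passed both thresholds and the others did not, against 1534 of all 1700 genes that still passed. The genes of the set described below are all among those 92. With limma-voom, 32 of the 106 (30.2%) passed both thresholds, against 1509 of the other 1594 genes (94.7%).

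Saa3, an acute phase protein, led the set at 0.149, 0.23 and 0.224 CPM in AMs and 35.7, 255 and 5236 CPM in AM-LCs (log2 fold change 13.2 ± 2.43, adjusted p = 0.00406, 9.44 without replicate 3). Mmp3, stromelysin, was at 2.03, 3.28 and 693 CPM in AM-LCs, with 99.2% of its level in replicate 3, and 2 reads in AMs gave a ratio of 13117 (95% counting interval 3631 to 108308). Dcn, the matrix proteoglycan decorin, had no read in AMs and was at 9.7, 52.2 and 609 CPM, at least 2783-fold higher. Decorin and stromelysin are known products of fibroblasts. Dcn is itself a marker in the fibroblast sum, and the set was chosen for its level in replicate 3, so that its being high where that sum is high follows from the choice. Timp1, an inhibitor of matrix proteases, was at 0.448, 0.409 and 0.721 CPM in AMs and 4.21, 42.8 and 607 CPM in AM-LCs (log2 fold change 8.75 ± 1.98, adjusted p = 0.0093, 5.46 without replicate 3). Fbln2, of elastic fibres, had no read in AMs and was at 4.18, 30.01 and 582 CPM, at least 2558-fold higher. Sparc, a collagen-binding protein, was at 0.269, 0.23 and 0.348 CPM in AMs and 3.66, 80.9 and 469 CPM in AM-LCs (log2 fold change 9.4 ± 1.89, adjusted p = 0.00586, 7.19 without replicate 3). None of these 6 genes passed with limma-voom (adjusted p = 0.206 to 0.343). Mmp3 did not pass without AM replicate 1, 2 or 3 (adjusted p = 0.0965, 0.0687 and 0.0685), nor did Fbln2 (adjusted p = 0.0553, 0.0539 and 0.0537).

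The collagen genes had the same shape. Col1a2 had no read in AMs and was at 4.15, 45.3 and 434 CPM in AM-LCs, at least 2007-fold higher. Col3a1 was at 0.478, 0 and 0.0249 CPM in AMs and 1.01, 62.8 and 338 CPM in AM-LCs (log2 fold change 9.8 ± 2.28, adjusted p = 0.0105, 7.63 without replicate 3). Bgn, the proteoglycan biglycan, was at 3.72, 17.3 and 333 CPM in AM-LCs, a ratio of 13289.5 (95% counting interval 2385 to 524908) over 1 read in AMs. Igfbp7, a secreted binding protein, was at 3.23, 22.7 and 291 CPM, a ratio of 5947 (95% counting interval 1646 to 49104). Aebp1, of the matrix, was at 3.76, 11.9 and 236 CPM, a ratio of 9457 (95% counting interval 1697 to 373548). Ptx3, a soluble pattern receptor, had no read in AMs and was at 20.1, 13.1 and 223 CPM, at least 1063-fold higher. Of other listed genes, Ptgs2, cyclooxygenase 2, had no read in AMs and was at 9.31, 2.79 and 79.4 CPM, and Ptgis, which makes prostacyclin, had none and was at 3.5, 11.9 and 83.7 CPM. With limma-voom none of these 8 genes passed (adjusted p = 0.0575 to 0.434). Col3a1 did not pass without AM replicate 2 or 3 (adjusted p = 0.0511 and 0.0527), Bgn without AM replicate 2 (adjusted p = 0.0538) and Aebp1 without AM replicate 1 (adjusted p = 0.0531).

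**Figure D4:**
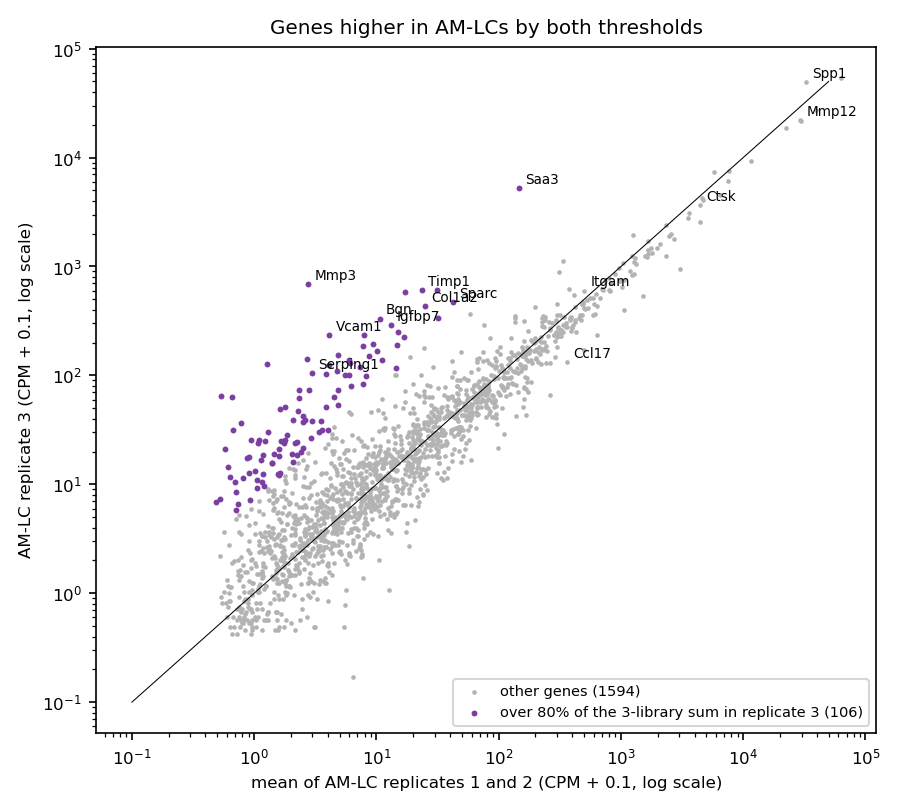
CPM + 0.1 (log axes) of the 1700 genes higher in AM-LCs past both thresholds, AM-LC replicate 3 against the other AM-LC libraries. The 106 genes with over 80% of their AM-LC level in replicate 3 are in purple, and Saa3, Mmp3, Dcn and Timp1 lead them.

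Other genes passed as lower once replicate 3 was left out. Fn1, fibronectin, was at 827, 1150.4 and 827 CPM in AMs and 3.53, 34.4 and 353 CPM in AM-LCs (log2 fold change -2.77 ± 1.34, adjusted p = 0.125), and it passed as lower without replicate 3 (-5.64, adjusted p = 0.0045), but also on all 6 libraries with limma-voom (-4.83, adjusted p = 0.0139) and with a replicate block (adjusted p = 0.0414). C3, the central complement component, was at 259, 278 and 294 CPM in AMs and 38, 92.5 and 405 CPM in AM-LCs (log2 fold change -0.58 ± 0.77, adjusted p = 0.566), with -2.1 and an adjusted p of 0.00459 without replicate 3. In both genes replicates 1 and 2 were below every AM library, and replicate 3 was the highest AM-LC library. Leaving it out added 261 genes past both thresholds as lower, against 228 and 221 when replicate 1 or 2 was left out.

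Changes from sorted to cultured cells were then compared with those in microglia (MG), Kupffer cells (KCs) and peritoneal macrophages (PMs), which the study cultured with M-CSF (and IL-34 for MG), glucose and low oxygen. Here tissue and culture condition cannot be told apart. Of 17408 genes, 1337 (7.68%) had a more positive and 1645 (9.45%) a more negative change in AMs than in the mean of the other 3. AM identity genes, listed for their high level in AMs and so able to fall furthest there, were more negative in 18 of 39 and more positive in 1. Cell cycle genes were more negative in 21 of 48, immediate early genes in 17 of 31, fatty acid oxidation in 16 of 29, cholesterol synthesis in 14 of 26 and glycolysis in 18 of 42. Unfolded protein response genes were more positive in 13 of 21 and complement in 10 of 25. Genes of other tissues can be more positive through their fall in the tissue they mark, so their count is not given.

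Pparg went from 349 to 95.2 CPM in alveolar cells, while the mean went from 0 to 23.4 CPM in MG, from 29.5 to 55.6 CPM in KCs and from 1.02 to 78.7 CPM in PMs (interaction -8.51 on the log2 scale, adjusted p = 1.19e-05). The nuclear receptor of AM identity thus fell in alveolar cells, and its mean was higher after culture in the other 3 tissues. C5ar1 went from 879 to 16.9 CPM, while the mean went from 215 to 739 CPM in MG, from 167 to 999.6 CPM in KCs and from 561 to 903 CPM in PMs (interaction -7.38, adjusted p = 6.13e-05). Atp6v0d2 went from 1828 to 2624 CPM, while the mean went from 0.407 to 163 CPM in MG, from 38.4 to 207 CPM in KCs and from 0.604 to 1694 CPM in PMs (interaction -6.99, adjusted p = 0.0002004). For Atp6v0d2 the difference lies in the other tissues, which started low. Fabp4 went from 128 to 518 CPM, while the mean went from 0.022 to 239 CPM in MG, from 6.02 to 309 CPM in KCs and from 579.6 to 1161 CPM in PMs (interaction -4.58, adjusted p = 0.00156). Cxcl2, a neutrophil attractant, went from 65.7 to 50.7 CPM, while the mean went from 0.0344 to 190.2 CPM in MG, from 17.8 to 903 CPM in KCs and from 46.1 to 772 CPM in PMs (interaction -7.74, adjusted p = 0.00285). Within the alveolar cells Cxcl2 overlapped between the groups (log2 fold change -0.38 ± 0.87, adjusted p = 0.74), and its direction turned without AM replicate 1 (0.096) and without AM-LC replicate 2 (0.13).

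In the other direction, Rbp4 went from 0.268 to 3285 CPM, while the mean went from 0.107 to 3.92 CPM in MG, from 33.2 to 0.407 CPM in KCs and from 0.331 to 0.828 CPM in PMs (interaction 13.49, adjusted p = 4.66e-05). Its mean was low in every other group. Alox15, a lipoxygenase, had no read in AMs and was at 7.02, 0.878 and 5.92 CPM in AM-LCs, while the mean went from 0.0943 to 0.185 CPM in MG, from 1.73 to 0.117 CPM in KCs and from 15094 to 34.2 CPM in PMs. Tmem119, a marker of microglia, was at 1.24, 0.687 and 1.4 CPM in AM-LCs, while the mean went from 4395 to 23.6 CPM in MG, from 1.72 to 0.214 CPM in KCs and from 6.85 to 4.16 CPM in PMs. Alox15 and Tmem119 thus reached a large interaction with few reads in the alveolar cells and large falls in PMs and MG.

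**Figure D5:**
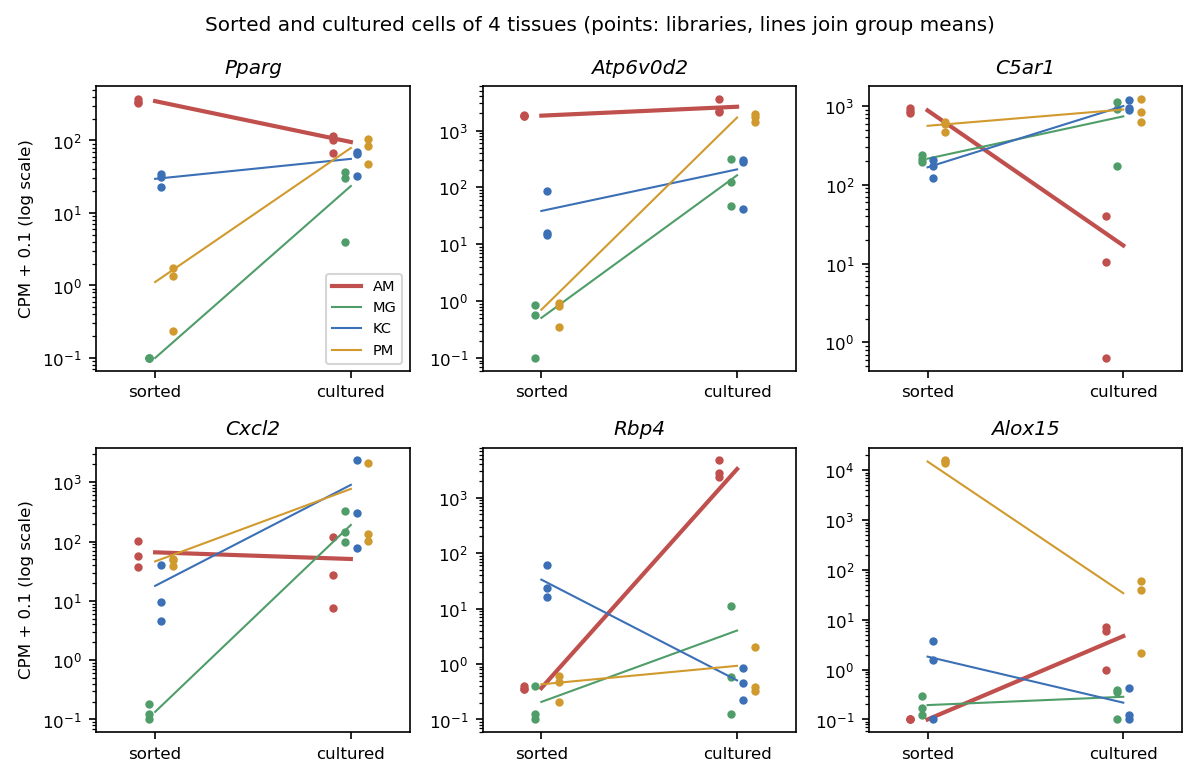
CPM + 0.1 (log axis) of Pparg, Atp6v0d2, C5ar1, Cxcl2, Rbp4 and Alox15 in sorted and cultured cells of the 4 tissues (points are libraries, lines join group means). Pparg and C5ar1 go down in alveolar cells and up in the other 3, and Rbp4 goes up to 2373 CPM or more in each AM-LC library.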

How the data were processed

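RNA sequencing libraries of 3 sorted AM and 3 cultured AM-LC samples were analysed, with the 18 libraries of MG, KCs and PMs for the interaction alone. The deposited table held raw counts per gene for each library, which the authors had neither normalized nor filtered. The submitters' processing notes name Trimmomatic 0.36 and STAR 2.5.2b. The counts carry mouse Ensembl identifiers, and the libraries came from a full-length kit that keeps no strand, so that overlapping antisense genes cannot be told apart. Symbols and coordinates (GRCm38) were matched to all 45706 identifiers of the table. The members and gene lists were chosen with earlier results of these data known.

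In R 4.3.3, edgeR 4.0.16 quasi-likelihood tests (two-sided, TMM, filterByExpr with a minimum count of 10, only the 6 libraries) gave 13196 tested genes, and p-values were adjusted by Benjamini-Hochberg over all of them. Both thresholds means an adjusted p under 0.05 plus a change of over 1.5 log2 units in either direction. The interaction (AM change minus the mean of the other 3 changes) was fitted over 17408 genes of 24 libraries. A group without reads was set to 3 counts per library (0.0746 to 0.115 CPM) for a lower bound, and ratios over 1 to 3 reads have 95% intervals for counting error alone. A gene was carried by a library that held over 80% of its summed AM-LC CPM. The 39 pathway and 16 marker lists held 1093 symbols, of which 1089 were found. Promoters were the 250 bases before the start sites in a RefSeq table (32851 promoters).

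Genes named are the 3 markers, list members, the 15 largest changes per direction past both thresholds at an average log2 CPM above 5 without overlap, the 10 most abundant per group, the 10 largest interactions per direction and the 10 most abundant genes carried by AM-LC replicate 3. The interactions were likewise taken at an average log2 CPM above 5, among genes tested in the 6 libraries or listed. Replicates within a group differed by far more than sampling noise (chi-square per degree of freedom 29.7 to 56.4 in AMs and 169 to 186 in AM-LCs). Alternatives were limma-voom (limma 3.58.1), DESeq2 1.42.0, RLE factors, no filter, 1 CPM in 3 libraries, all 24 libraries in 1 model, a replicate block, each library left out and, chosen after seeing the data, library size alone. The fits were also run on simulated counts with known changes in a small part of the genes. That run does not test the scaling where many genes change, and its limit on false calls was not applied to DESeq2. Reads of near-identical copies (Ear1 and Ear2, Csf2rb and Csf2rb2, Chil3 and Chil4, ribosomal pseudogenes) may have been split in the counting. A few genes of the lists are not reported here.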

Additional observations from a re-analysis of the deposited data

Results flagged for a closer look

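The genes below differed between alveolar cells and the mean of the other 3 tissues in their change from sorted to cultured cells, by a test of that difference (interaction in a model of 24 libraries, edgeR, adjusted p under 0.05). They were the 10 largest in each direction among genes at an average log2 CPM above 5 that were tested in the 6 libraries or listed. Tissue and culture medium cannot be told apart in them. More positive in alveolar cells, on the log2 scale, were Asb2 at 15.87, Lbp at 14.61, Alox15 at 14.28, Ednrb at 14.20, Ptprm at 13.81, Ccl24 at 13.63, Rbp4 at 13.49, Clec4f at 12.23, Hal at 12.20 and Tmem119 at 12.09. Most of these have 0 to 3 reads in AMs, so that the fitted value depends on the prior count and gives a direction, not a size. Asb2 was at 84.3, 9.16 and 28.9 CPM in AM-LCs, Ednrb at 55, 10.5 and 28.7 CPM and Hal at 28.3, 18 and 17.8 CPM, while Clec4f was at 0, 1.3 and 0 CPM and Ccl24 at 0.686, 0.344 and 0 CPM. For Clec4f, a marker of Kupffer cells, the mean went from 0.143 to 0.0655 CPM in MG, from 11739.5 to 0.056 CPM in KCs and from 0.0727 to 0.613 CPM in PMs, and both alveolar groups were at or near 0. Lbp, which binds bacterial lipopolysaccharide, was at 0.49, 0.878 and 36.8 CPM in AM-LCs, with 96.4% of its level in replicate 3.

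More negative were Mcoln3 at -8.71, Pparg at -8.51, Cxcl2 at -7.74, Atp8b4 at -7.50, C5ar1 at -7.38, C77080 at -7.01, Atp6v0d2 at -6.99, Clec12a at -6.95, Prkar2b at -6.73 and Gdf15 at -6.53. Mcoln3, a lysosomal channel, went from 422 to 169 CPM in alveolar cells, while the mean went from 0.0239 to 41.5 CPM in MG, from 5.41 to 47.7 CPM in KCs and from 0.127 to 47.8 CPM in PMs. Clec12a, an inhibitory lectin receptor, went from 49 to 39.1 CPM, while the mean went from 0.0588 to 330.0 CPM in MG, from 299 to 607 CPM in KCs and from 7.8 to 741 CPM in PMs. Gdf15, a stress-induced cytokine, went from 48.7 to 62.6 CPM, while the mean went from 0.383 to 108 CPM in MG, from 7.58 to 195 CPM in KCs and from 0.426 to 100.1 CPM in PMs. Prkar2b, a regulatory subunit of protein kinase A, went from 379 to 85.4 CPM, while the mean went from 0.0434 to 46.9 CPM in MG, from 5.78 to 33.7 CPM in KCs and from 10.5 to 23.5 CPM in PMs. Groups of 3 libraries were too small to test single libraries for distance from the others.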

How the results depend on the processing

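The 1700 genes higher and 1137 lower in AM-LCs past both thresholds were 1635 and 1312 with limma-voom, 1759 and 1118 with DESeq2, 1730 and 1106 with RLE factors, 2017 and 1144 without a filter, 1354 and 979 at 1 CPM and 1801 and 1007 with 24 libraries, and without 1 library at a time 1548 to 1867 and 943 to 1273, with 2642 to 3421 and 2174 to 3052 at the adjusted p alone. With library size in place of TMM, 1774 genes were lower past both thresholds and 4576 at the adjusted p alone. The 106 genes carried by replicate 3 were 42 at a share of 90%, against 0 in replicate 1 and 0 in replicate 2. Over all genes tested they were 231, against 88 in replicate 1 and 101 in replicate 2. The interaction count of 2982 ranged from 2067 to 2333 with 1 AM or AM-LC library left out. Deviations of AM and AM-LC libraries with the same number correlated at 0.0301, -0.00137 and 0.0686, and those with different numbers at -0.0896 to 0.0669. So few libraries cannot show whether the numbers pair them, and the labels do not say so. With a replicate block 1632 genes were higher and 1151 lower past both thresholds, 3094 and 2782 at the adjusted p alone, and the interaction count was 2919. The list medians that changed sign were those of GM-CSF signalling (-0.28 with library size, -0.025 to 0.20 without 1 AM-LC library), TGF-beta signalling (-0.18 with library size, -0.20 without AM-LC replicate 3), lipid handling (-0.37 with library size, -0.21 at 1 CPM, -0.24 with 24 libraries, -0.026 without a filter, -0.0094 with limma-voom, -0.014 with the block, -0.20 to 0.03 without 1 library), gluconeogenesis (-0.37 with library size, -0.0125 with limma-voom, -0.014 with the block, -0.085 to 0.026 without 1 library), the Ms4a family (0.49 with limma-voom, 0.37 with the block, 0.037 without a filter, 0.57 at 1 CPM, -1.22 to 0.85 without 1 library), cholesterol synthesis (-0.10 with library size), lysosomal proteins (-0.099 with library size), inflammatory cytokines (range -0.22 to 0.050 without 1 AM-LC library, 0.17 without a filter, 0.067 with 24 libraries), uptake receptors (-0.15 at 1 CPM), Siglec and Fc receptors (0.062 without AM-LC replicate 3) and integrins (-0.10 with library size, -0.061 at 1 CPM). Among single genes, Csf2rb turned to -0.28 with library size and ranged from -0.025 to 0.20 without 1 library, Cxcl2 ranged from -1.86 to 0.13 and Clec12a from -0.96 to 0.038. The block ended no call of the 172 genes tested and named, and added those of Fn1 and Mcoln3 (adjusted p = 0.0414 and 0.0245). Where fewer libraries were left, the spread rested on fewer samples, and other causes were not tested. Genes with 3 or fewer reads in a group have no size at this depth.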
